A study of Mus musculus with 16 samples.

Results

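The collagen gene family was followed through BRAF inhibitor treatment and resistance in mouse melanoma biopsies. Members were all non-control array features whose gene name was exactly Col, digits, the letter a and digits, which gave 44 collagen genes on 69 features, among 34763 named genes and transcripts on the array. Of these, 38 could be tested, since a feature of theirs exceeded background in the tumour channel on 4 or more of the 16 arrays, among 21985 genes and transcripts tested in all. The other 6 (Col4a3, Col9a1, Col9a3, Col13a1, Col19a1 and Col22a1) were above background on at most 3 arrays and were not tested. Of the 38 tested, 27 were above background on all 16 arrays.

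Total RNA of melanoma biopsies was labelled with Cy5 and hybridised together with Universal Mouse Reference RNA in Cy3, with the dyes the same way round on every array. The 4 groups of 4 arrays were untreated control tumours, tumours treated for 4 days, tumours treated for 60 days, and resistant tumours at day 120. The drug's name, and the animals' genotype, strain and age, are not given in the sources used here, and neither is whether a group's tumours came from separate animals, so p-values measure only the spread between these samples, which may be technical. The title codes show 3 untreated tumours sharing a code, while the 60-day and resistant tumours carry 2 codes each that follow the slides. Codes of another series mark the 4-day tumours, and no code is shared between groups. The effects of treatment and of origin, handling or whatever the codes mark therefore cannot be told apart in any group. Each slide held 2 arrays of every group (replicates 3 and 4 on slide 1, replicates 1 and 2 on slide 2), and the position on the slide followed the group.

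Collagens are triple-helical matrix proteins built from 3 alpha chains, which can come from the same gene or from different genes. Fibrillar collagens form the tensile fibrils of dermis and tumour stroma, fibril-associated collagens decorate those fibrils, type IV and type VIII chains form sheet-like networks, type VI chains form beaded microfilaments, and types VII and XVII anchor the epidermis. In skin and in tumours fibroblasts make most fibrillar collagen, while endothelium, pericytes and keratinocytes contribute basement membrane chains. Whole biopsies were measured here, so fewer cells of a type and less RNA per cell cannot be told apart. All values below are log2 ratios of tumour over reference signal, or differences of those ratios between groups with the standard error (SE) from limma, and levels of different genes were not compared because each probe has its own response.

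Across genes, the median correlation was 0.894 between arrays within a group and 0.869 between groups, with 0.578 as the lowest value for any pair of arrays. Between 49% and 54.2% of the features were above background in Cy5 on each array. Resistant replicate 1 stood apart, with a median correlation of 0.698 with the other arrays against 0.836 to 0.916 for the rest. On that array the keratinocyte markers had a median of -2.43 after centring each gene over the 16 arrays, against -0.51 to 0.80 on the other arrays. Untreated replicate 3 was the lowest of its group for Col1a1, Col3a1, Col4a1, Col5a1 and Col5a2 among others. Without resistant replicate 1 the sign of the difference turned for 6 of the 38 collagens against untreated, 12 against 4-day and 7 against 60-day tumours, and none of these was called. Values with and without an array are given below for some chains only. Without untreated replicate 3 the 4-day differences moved from -0.62 to -0.98 for Col1a1, -0.53 to -0.97 for Col1a2, -0.37 to -0.71 for Col3a1 and -0.81 to -1.16 for Col4a1, none called. That of Col12a1 moved from -1.13 to -0.96. In that fit 25 of the 38 were lower and 13 higher at 4 days. At least 5 of the 8 melanocyte markers were above background on every array, and their mean ratio to the reference was 1.51 to 1.95 in untreated tumours, 1.80 to 3.66 at 4 days, 2.37 to 3.46 at 60 days and 1.16 to 3.09 in resistant tumours.

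At 4 days 1 collagen gene fell and none rose. Col8a1, a chain of the short-chain type VIII collagen found in vessel walls and at sites of tissue remodelling, was 3.65-fold lower (-1.87 ± 0.37, limma adjusted p = 0.0318), where 1.34% of all tested genes were called. At an unadjusted p under 0.05 there were 5 lower collagens (Col5a1, Col5a2, Col8a1, Col11a1 and Col12a1) and 1 higher (Col4a6), or 6 of 38, against 16.7% of all genes. Groups did not overlap for 4 collagens, 2 higher and 2 lower, against 7% of all genes (Col4a5 and Col4a6 higher, Col8a1 and Col12a1 lower). In direction 26 of the 38 were lower and 12 higher, with a median difference of -0.29 beside -0.01 over all genes.

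At 60 days no collagen gene passed limma's adjusted threshold, where 0.819% of all genes did. At an unadjusted p under 0.05 there were 7 lower and 3 higher, or 10 of 38, against 18.7% of all genes, and 6 collagens had groups that did not overlap, against 13.8%. The median difference was -0.15, with 22 lower and 16 higher, beside 0.00 over all genes. In resistant tumours against untreated ones no collagen was called by limma (0.0182% of all genes were), 2 were lower at an unadjusted p under 0.05 (9.52% of all genes), 1 had groups that did not overlap (4.28%), and the median was -0.28 with 28 of 38 lower, beside 0.01 over all genes. These 3 comparisons share the untreated arrays, so their values stand side by side and are not evidence for each other.

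The family medians depended on single arrays. Leaving out 4-day replicate 2 gave a 4-day median of -0.48, and leaving out 4-day replicate 4 gave -0.09. The same median was -0.15 with untreated replicate 2 left out and -0.45 with untreated replicate 3 left out. The 60-day median was -0.33 with 60-day replicate 1 left out, -0.10 with 60-day replicate 2 left out and -0.41 with untreated replicate 3 left out. For resistant tumours it was -0.42 when untreated replicate 3 was dropped and -0.13 when untreated replicate 2 was dropped. It was below 0 in each of these comparisons whichever array was left out.

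Between the treated groups no collagen was called. Resistant against 4-day tumours gave no collagen call by limma (0.00455% of all genes), 2 higher and 3 lower at an unadjusted p under 0.05 (8.19% of all genes) and 1 with groups that did not overlap (2.77%). Resistant against 60-day tumours gave no call (0% of all genes), 2 higher and 4 lower unadjusted (5.67%) and 1 without overlap (3.63%). The 60-day against 4-day tumours gave no call (0%), 1 higher unadjusted (1.87%) and 1 without overlap (1.68%), and the gene was Col28a1 in both counts. A joint test of any difference among the 4 groups called no collagen (0.268% of all genes were called), and the lowest adjusted p was that of Col8a1, at 0.101 by limma's F-test.

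**Figure D1:**
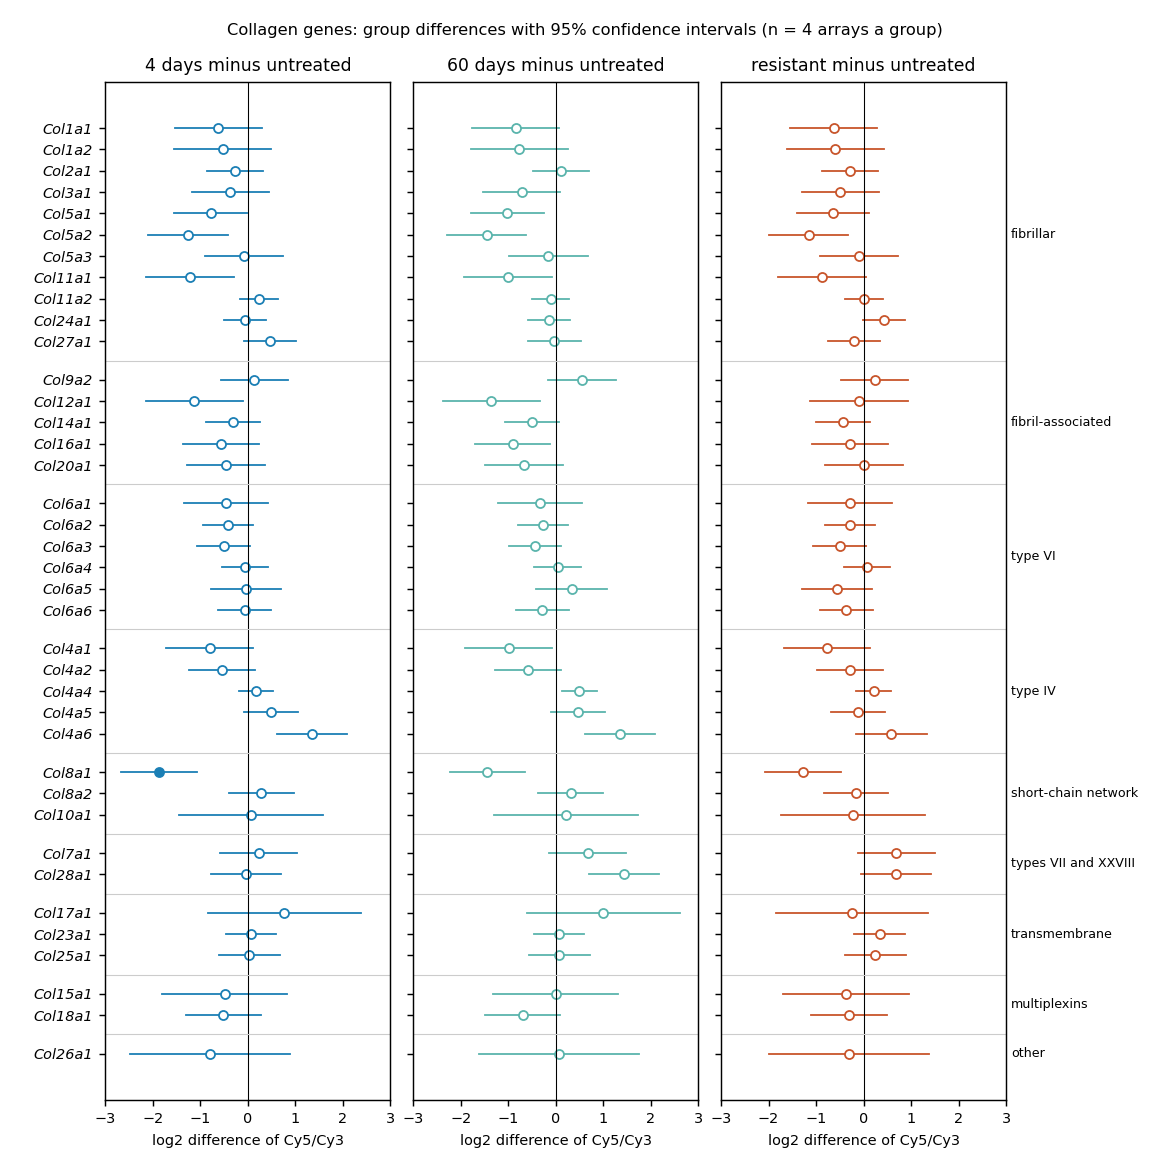
Log2 differences of the Cy5/Cy3 ratio between each treated group and the untreated tumours for the 38 tested collagen genes, by class. Points are differences, lines 95% confidence intervals from limma (n = 4 arrays a group), and the filled point is the only gene past the adjusted threshold of 0.05, Col8a1 at 4 days (-1.87).

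The fibrillar chains lay mostly below untreated without a call. Of 11 tested, 9 were lower at 4 days (median -0.37), 10 at 60 days (median -0.72) and 9 in resistant tumours (median -0.49), and none passed the test in any comparison. Col1a1, which encodes the main chain of type I collagen, had ratios of 3.54, 3.27, 1.82 and 2.94 in untreated tumours, 2.18, 3.21, 2.41 and 1.29 at 4 days, 2.44, 2.21, 1.91 and 1.62 at 60 days, and 2.90, 2.62, 1.53 and 2.00 in resistant tumours. Its untreated replicate 3 lay inside the range of every treated group, so all groups overlapped. The differences were -0.62 ± 0.43 at 4 days, -0.85 ± 0.43 at 60 days and -0.63 ± 0.43 in resistant tumours (limma adjusted p = 0.52, 0.306 and 0.691).

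Col1a2 encodes the other chain of type I collagen. Its ratios were 3.65, 3.27, 1.56 and 3.08 in untreated tumours, 2.08, 3.46, 2.46 and 1.43 at 4 days, 2.52, 2.04, 1.99 and 1.93 at 60 days, and 3.13, 2.55, 1.45 and 2.05 in resistant tumours. Array by array it tracked Col1a1: the difference between these chains ranged from -0.30 to 0.26 over the 16 arrays. Col3a1, the chain of type III collagen that mixes with type I in skin, read 4.34, 4.00, 2.78 and 4.14 in untreated tumours, 3.07, 3.93, 4.12 and 2.67 at 4 days, 3.16, 2.85, 3.26 and 3.12 at 60 days, and 4.15, 3.29, 2.73 and 3.13 in resistant tumours. The 60-day values were the tightest of the 4 groups, with an SD of 0.17 against 0.60 to 0.71 in the others.

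Type V collagen sits in the core of type I fibrils and sets their diameter. Col5a2 had ratios of 3.56, 3.67, 2.16 and 3.58 in untreated tumours, 1.44, 2.56, 2.62 and 1.29 at 4 days, 2.15, 1.5, 1.87 and 1.63 at 60 days, and 2.88, 1.88, 1.56 and 2.02 in resistant tumours. Untreated replicate 3 alone overlapped the treated groups; the other untreated arrays were above all 12 treated ones. The differences were -1.26 ± 0.39, -1.45 ± 0.39 and -1.16 ± 0.39 (limma adjusted p = 0.13, 0.0846 and 0.319). Without untreated replicate 3 the gene passed at 4 days (-1.62 ± 0.35, adjusted p = 0.0287) and at 60 days (-1.81 ± 0.35, adjusted p = 0.0175).

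Col5a1 had ratios of 1.98, 1.94, 1.03 and 2.06 in untreated tumours, 0.70, 1.5, 1.44 and 0.23 at 4 days, 0.90, 0.33, 0.70 and 1.00 at 60 days, and 2.04, 1.20, 0.46 and 0.71 in resistant tumours. Only the 60-day group did not overlap the untreated one (-1.02 ± 0.36, limma adjusted p = 0.156). Of the minor fibrillar chains, Col11a1 differed by -1.21 ± 0.43 at 4 days (adjusted p = 0.185), while Col27a1 differed by 0.47 ± 0.26 (adjusted p = 0.378), so the class was not uniform in sign.

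The 14 fibroblast markers gave a like picture of single arrays, and their part in the collagen values was not tested. All 14 were above background on every array, with a mean ratio of 1.46 to 1.91 in untreated tumours, 1.09 to 1.92 at 4 days, 1.40 to 1.60 at 60 days and 1.30 to 2.31 in resistant tumours. Their median difference was -0.19 at 4 days and -0.22 at 60 days, with 9 and 8 of 14 lower. Within the list Cthrc1, a secreted protein of fibroblasts that make collagen, fell at 4 days (-1.81 ± 0.31, limma adjusted p = 0.015, 0.00149 with the slide as a block, -1.78 and -1.85 on slides 1 and 2) and at 60 days (-1.54 ± 0.31, adjusted p = 0.0374, 0.0047 with the block, -1.57 and -1.51 on slides 1 and 2). Its ratios were 2.53 to 3.25 in untreated tumours, 0.73 to 1.28 at 4 days and 0.98 to 1.86 at 60 days, with no overlap. Without the block it was the 1 call among the 14 at each time, where 1.34% and 0.819% of all genes were called. The list's 2 brightest members did not pass: Thy1 differed by -1.01 ± 0.35 and Fbln2 by -0.54 ± 0.49 at 4 days (adjusted p = 0.17 and 0.667). Others of the list lay above untreated, among them Pi16, named after its values were seen, which differed by 0.92 ± 0.32 at 4 days and 1.01 ± 0.32 at 60 days (adjusted p = 0.173 and 0.127, and 0.0482 at 60 days with the slide as a block).

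**Figure D2:**
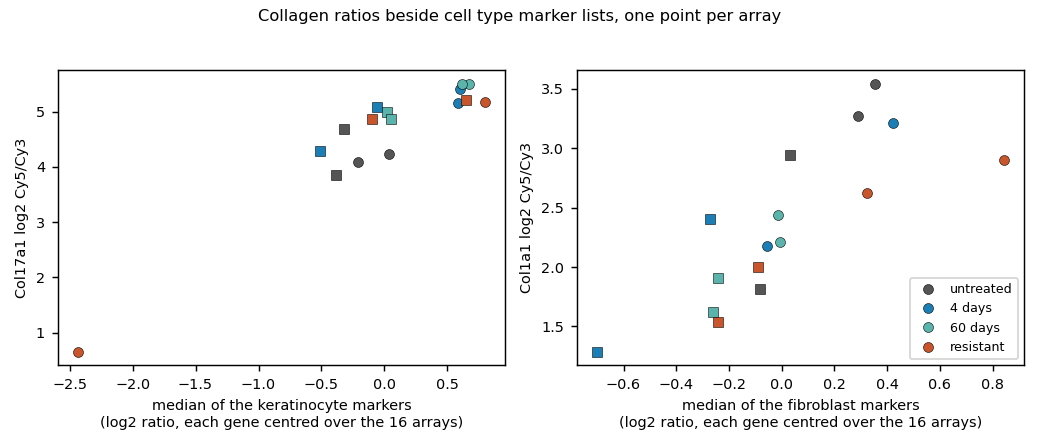
Log2 Cy5/Cy3 ratio of Col17a1 against the median of 10 keratinocyte markers and of Col1a1 against the median of 14 fibroblast markers, 1 point per array, coloured by group (squares slide 1, circles slide 2). Resistant replicate 1 lies alone at the lower left of the keratinocyte panel, with a marker median of -2.43 and a Col17a1 ratio of 0.65.

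Among the fibril-associated collagens, 4 of 5 were lower at 4 days and 4 of 5 at 60 days, with medians of -0.45 and -0.67 and no call. Col12a1, which binds the surface of type I fibrils in tissue under load, had ratios of 2.59, 2.72, 3.30 and 2.58 in untreated tumours, 1.49, 2.12, 1.14 and 1.96 at 4 days, 1.62, 1.49, 1.39 and 1.27 at 60 days, and 4.48, 3.02, 1.78 and 1.53 in resistant tumours. Neither the 4-day nor the 60-day arrays overlapped the untreated ones, and the resistant arrays spread from below to above them. The differences were -1.13 ± 0.48 at 4 days and -1.36 ± 0.48 at 60 days (limma adjusted p = 0.257 and 0.158). In resistant tumours Col12a1 split by slide, with -1.29 on slide 1 and 1.09 on slide 2, and the difference was -0.10 ± 0.48 with all arrays and -0.69 ± 0.32 without resistant replicate 1.

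Col14a1 encodes undulin, the type XIV chain that limits fibril fusion in dermis and tendon. Its ratios were 4.24, 4.30, 3.21 and 3.88 in untreated tumours, 3.47, 4.11, 3.48 and 3.34 at 4 days, 3.89, 3.59, 3.05 and 3.11 at 60 days, and 3.47, 3.73, 3.01 and 3.67 in resistant tumours. On the probe used all groups overlapped, with differences of -0.30 ± 0.27, -0.50 ± 0.27 and -0.44 ± 0.27. The tumour channel taken alone gave another size. Log2 Cy5 signals of Col14a1 were 14.13, 13.05, 12.28 and 13.24 in untreated tumours, 10.75, 12.15, 12.65 and 11.44 at 4 days, 11.45, 10.98, 10.90 and 10.98 at 60 days, and 10.79, 10.80, 11.53 and 11.33 in resistant tumours.

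On that scale neither the 60-day nor the resistant arrays overlapped the untreated ones. Col14a1 fell at 60 days in Cy5 alone by 2.09 on the log2 scale, a 4.27-fold change (SE 0.40, limma adjusted p = 0.0255, 0.0272 with the slide as a block, -1.81 on slide 1 and -2.38 on slide 2). It was the only collagen called in Cy5 alone at 60 days, where 1.16% of all genes were called; Col8a1 was the only one at 4 days (1.94% of all genes), and none was called in resistant tumours by limma (0.0546% of all genes), where Col14a1 differed by -2.06 ± 0.40 (adjusted p = 0.0938). A further Col14a1 probe, also above background on all 16 arrays, gave Cy5 differences of -1.29, -1.51 and -1.47 and ratio differences of -1.20, -1.33 and -1.45 at 4 days, at 60 days and in resistant tumours. That probe and the Cy5 values of further collagens were looked at after the values of Col14a1 were seen.

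For the Col14a1 probe used, the gap between the ratio and the tumour channel lay in the reference channel. The reference is a common RNA, and the SD of its Cy3 signal over the 16 arrays had a median of 0.109 over all tested genes. For Col14a1 the Cy3 signal ranged from 7.07 to 9.89 (SD 0.849) and was high where Cy5 was high, with a correlation of 0.923 over the 16 arrays, which share probe and scan. On the further Col14a1 probe Cy3 ranged from 6.37 to 7.01, so the wide range belonged to the probe used. Col20a1, another fibril-associated chain, and Col17a1 had Cy3 ranges of 3.01 and 2.41 and correlations of 0.946 and 0.744 with Cy5. These 3 were the collagens with a Cy3 range above 2, and 30 of the 38 had a range under 1. The Cy3 signal of Col8a1 stayed between 9.51 and 9.81. Where the reference signal moved with the tumour signal, a ratio is smaller than the difference in Cy5. The type I chains went the other way, with correlations of -0.621 for Col1a1 and -0.793 for Col1a2. In Cy5 alone Col1a1 differed by -0.39 at 4 days, -0.48 at 60 days and -0.31 in resistant tumours. Its ratio differences of -0.62, -0.85 and -0.63 were larger than these. The cause was not tested in either case.

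**Figure D3:**
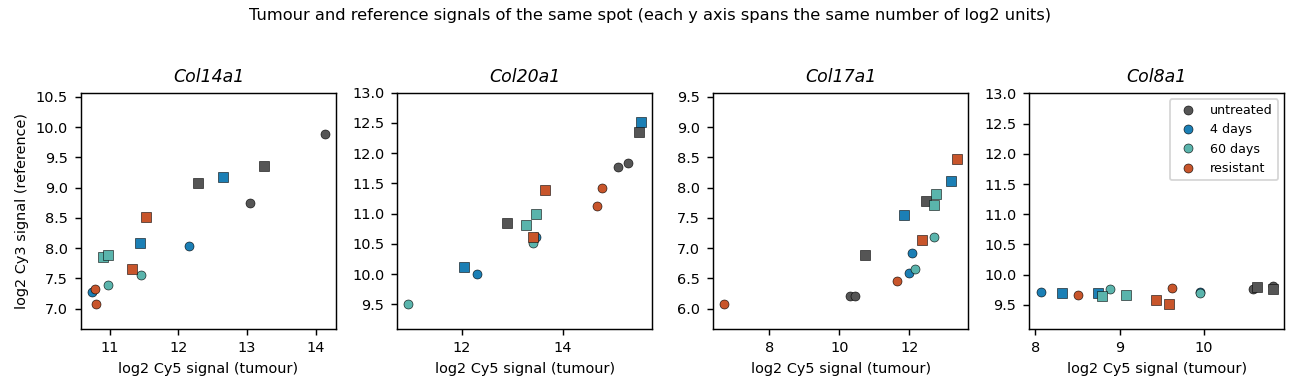
Log2 Cy5 signal (tumour) against log2 Cy3 signal (reference) of the same spots for Col14a1, Col20a1, Col17a1 and Col8a1, 1 point per array, coloured by group (squares slide 1, circles slide 2). The reference signal of Col14a1 rises from 7.07 to 9.89 along with Cy5, while that of Col8a1 stays between 9.51 and 9.81.

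Type VI collagen surrounds cells with a microfilament mesh whose standard unit is made from the chains of Col6a1, Col6a2 and Col6a3. All 6 tested chains were lower at 4 days (median -0.24), 4 of 6 at 60 days and 5 of 6 in resistant tumours, and none was called. Col6a1 had ratios of 2.00, 1.90, 0.54 and 1.41 in untreated tumours, 1.10, 1.97, 1.05 and -0.13 at 4 days, 1.59, 1.09, 0.89 and 0.97 at 60 days, and 1.78, 1.34, 0.44 and 1.17 in resistant tumours. Col6a2 read 2.37, 2.19, 1.58 and 2.37, then 1.55, 2.27, 1.82 and 1.18, then 2.00, 1.51, 1.74 and 2.22, then 1.93, 1.52, 1.67 and 2.25 in the same order of groups. Col6a3 read 3.09, 2.93, 2.58 and 3.32, then 2.34, 2.91, 2.81 and 1.84, then 2.51, 1.98, 2.88 and 2.81, then 2.63, 2.12, 2.31 and 2.85. All groups overlapped for these chains, and their differences from untreated lay between -0.50 and -0.26 (SE 0.25 to 0.41).

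The type IV chains of basement membranes went in both directions. The widespread chains Col4a1 and Col4a2 lay below untreated, and the chains Col4a5 and Col4a6, which in skin belong to the epidermal basement membrane, lay above it at 4 and at 60 days, all without a call. Col4a1 had ratios of 3.95, 3.69, 2.53 and 4.18 in untreated tumours, 2.49, 2.68, 3.88 and 2.08 at 4 days, 2.74, 1.89, 2.91 and 2.84 at 60 days, and 3.58, 2.49, 2.25 and 2.94 in resistant tumours. Its differences were -0.81 ± 0.43, -0.99 ± 0.43 and -0.77 ± 0.43 (limma adjusted p = 0.365, 0.231 and 0.609). Col4a2 read 3.02, 3.08, 1.94 and 3.02, then 2.22, 2.55, 2.73 and 1.35, then 2.56, 1.88, 2.11 and 2.17, then 3.05, 2.45, 1.88 and 2.52 in the same order of groups. Without untreated replicate 3, only 4-day replicate 3 reached the untreated range of Col4a1 and only resistant replicate 1 that of Col4a2. In RefSeq (GRCm38.p6) the transcript starts of these genes lie 21 bases apart on opposite strands of chromosome 8.

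Col4a6 had ratios of -1.88, -1.95, -1.21 and -1.90 in untreated tumours, -0.19, -0.62, -1.04 and 0.32 at 4 days, -0.66, -0.08, -0.33 and -0.45 at 60 days, and -2.13, -1.24, -0.26 and -0.96 in resistant tumours. Neither the 4-day nor the 60-day arrays overlapped the untreated ones. The difference was 1.35 ± 0.35 at both times (limma adjusted p = 0.0727 at 4 days and 0.0755 at 60 days), and it passed with the slide as a block (0.0469 and 0.0473). A further Col4a6 probe, above background on all 16 arrays, gave 0.13 at 4 days and -0.06 at 60 days, so the probes of this gene disagreed. Col4a5 differed by 0.49 ± 0.27 at 4 days and 0.47 ± 0.27 at 60 days (adjusted p = 0.372 and 0.368). In resistant tumours the differences were -0.11 ± 0.27 for Col4a5, which turned to 0.16 ± 0.22 without resistant replicate 1, and 0.58 ± 0.35 for Col4a6, which was 0.91 ± 0.31 without it.

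The short-chain network collagens hold the only gene called on the ratio. Col8a1 is measured by a probe at chr16:57624471-57624530 (mm9, the array design's build). Its ratios were 1.01, 0.83, 0.83 and 1.04 in untreated tumours, -1.65, 0.24, -0.96 and -1.39 at 4 days, 0.26, -0.87, -0.85 and -0.59 at 60 days, and -0.16, -1.15, -0.16 and 0.08 in resistant tumours. All 12 treated arrays lay below all 4 untreated ones, and the untreated arrays, replicate 3 included, ranged only from 0.83 to 1.04. The difference was -1.87 ± 0.37 at 4 days (limma adjusted p = 0.0318), with -2.11 on slide 1 and -1.63 on slide 2. With the slide as a block the limma adjusted p at 4 days was 0.0253. The difference was -1.44 ± 0.37 at 60 days (limma adjusted p = 0.0755) and -1.28 ± 0.37 in resistant tumours (adjusted p = 0.227). The 4-day call was lost when 4-day replicate 1 (adjusted p = 0.0938), 4-day replicate 4 (0.0938), untreated replicate 1 (0.0844), untreated replicate 2 (0.0945) or untreated replicate 4 (0.103) was dropped, and it held without any of the other 11 arrays.

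Col8a2 encodes the partner chain of type VIII collagen, at chr4:125991441-125991500 (mm9). Its ratios were 1.06, 0.50, 0.83 and 0.34 in untreated tumours, 1.08, 1.14, 0.52 and 1.14 at 4 days, 1.42, 0.82, 0.71 and 1.03 at 60 days, and -0.41, 0.23, 1.44 and 0.84 in resistant tumours. The groups overlapped, and the differences were 0.28 ± 0.32, 0.31 ± 0.32 and -0.16 ± 0.32 (limma adjusted p = 0.756, 0.661 and 0.928). Col10a1, the hypertrophic cartilage chain, was above background on 12 arrays and ranged from 0.09 to 3.35 within the 4-day group alone.

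The 250 bases before the transcript starts of the type VIII chains, and of the neighbouring type IV chains Col4a5 and Col4a6, are shown because within these sets the chains had unlike values. They come from RefSeq (GRCm38.p6) and run 5′ to 3′ on the gene's strand, with GC boxes (GGGCGG or its reverse complement CCGCCC) and CCAAT boxes (CCAAT or ATTGG) in capitals.
Col8a1 (chr16:57754738-57754987, minus strand): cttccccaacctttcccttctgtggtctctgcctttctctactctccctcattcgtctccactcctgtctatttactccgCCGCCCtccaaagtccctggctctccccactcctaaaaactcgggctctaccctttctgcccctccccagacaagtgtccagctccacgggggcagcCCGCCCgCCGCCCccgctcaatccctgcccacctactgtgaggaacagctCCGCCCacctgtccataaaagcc
Col8a2 (chr4:126286544-126286793, plus strand): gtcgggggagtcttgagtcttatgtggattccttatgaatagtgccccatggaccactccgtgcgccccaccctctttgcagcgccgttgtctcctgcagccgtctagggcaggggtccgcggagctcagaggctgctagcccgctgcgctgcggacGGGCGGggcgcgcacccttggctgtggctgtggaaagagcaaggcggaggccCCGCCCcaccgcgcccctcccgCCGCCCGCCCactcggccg
Col4a5 (chrX:141475169-141475418, plus strand): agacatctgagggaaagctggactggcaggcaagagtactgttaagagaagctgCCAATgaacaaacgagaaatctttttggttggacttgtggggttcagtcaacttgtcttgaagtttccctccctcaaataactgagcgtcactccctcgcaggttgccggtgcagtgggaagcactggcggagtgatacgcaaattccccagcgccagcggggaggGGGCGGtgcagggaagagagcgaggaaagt
Col4a6 (chrX:141474077-141474326, minus strand): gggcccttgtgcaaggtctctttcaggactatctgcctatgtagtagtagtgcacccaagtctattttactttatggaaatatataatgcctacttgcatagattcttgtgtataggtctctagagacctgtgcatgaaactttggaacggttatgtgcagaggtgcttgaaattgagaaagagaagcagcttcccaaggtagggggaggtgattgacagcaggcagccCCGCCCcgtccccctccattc

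The Col8a1 and the Col8a2 windows each hold 4 GC box matches, with an overlap of 2 of those in Col8a2, and no CCAAT box. Their GC contents were 60.8% and 70%. Over 38 windows of 35 collagen genes (9 of the 44 had no entry), a GC box occurred in 57.9% against 32.7% of all 32851 windows, a CCAAT box in 34.2% against 33.8%, and a TATA box (TATAAA or TTTATA) in 13.2% against 12.4%. The AP-1 letters TGAGTCA or TGACTCA occurred in 1 collagen window (2.63%, against 4.46% of all). Col4a5 and Col4a6 start 1343 bases apart on opposite strands. A match is a description of letters and not a binding site.

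Chains that assemble into the same molecule were set against each other as the difference of their log2 ratios on each array, a comparison chosen after the values were seen. Of 7 sets of partner chains and 3 comparisons each, an exact two-sided permutation test over 70 splits gave its smallest possible p of 0.0286 for Col8a1 against Col8a2 at 4 days (-2.15) and at 60 days (-1.75), for Col4a5 against Col4a6 in all 3 comparisons (-0.86, -0.88 and -0.70) and for Col4a1 against Col4a2 in resistant tumours (-0.48). After Benjamini-Hochberg adjustment over the 21 tests these were 0.1; an adjusted p under 0.05 would have needed 13 of the tests at the smallest p, and the splits ignore the slide, so the values are given as a description. The Col4a5 and Col4a6 values rest on the probe used for Col4a6: with its other probe they were 0.37, 0.52 and -0.09. At 4 days the type VIII difference was -2.35 on slide 1 and -1.96 on slide 2. Col5a1 against Col5a2 gave 0.48, 0.43 and 0.51 at 4 days, at 60 days and in resistant tumours (exact permutation p = 0.0571, 0.114 and 0.0571). Col6a1 against Col6a3 gave 0.04, 0.11 and 0.23, Col6a1 against Col6a2 -0.04, -0.07 and 0.01, and Col1a1 against Col1a2 -0.09, -0.08 and -0.04.

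**Figure D4:**
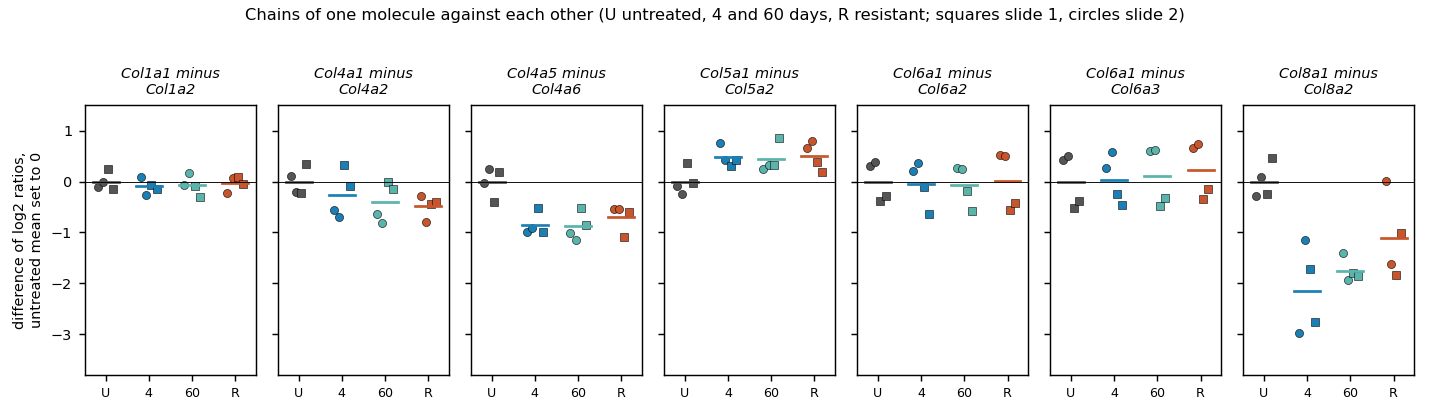
Difference of the log2 Cy5/Cy3 ratios of chains that assemble together, on each array, with the mean of the untreated arrays set to 0 (U untreated, 4 and 60 days, R resistant; squares slide 1, circles slide 2; bars are group means). The type I chains stay within 0.30 of each other, and the Col8a1 minus Col8a2 means lie 2.15 lower at 4 days and 1.75 lower at 60 days.

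Of the anchoring chain and type XXVIII, Col28a1, a chain of peripheral nerve and skin, had ratios of 0.70, 1.89, 1.92 and 1.63 in untreated tumours, 1.67, 2.19, 1.36 and 0.76 at 4 days, 3.69, 3.05, 2.88 and 2.30 at 60 days, and 1.76, 2.29, 2.45 and 2.39 in resistant tumours. The 60-day arrays lay above all untreated and all 4-day arrays. The difference at 60 days was 1.44 ± 0.35 against untreated (limma adjusted p = 0.0632, and 0.0458 with the slide as a block, with 0.81 on slide 1 and 2.07 on slide 2). Against 4 days it was 1.48 ± 0.35 (adjusted p = 1). The nerve and Schwann cell markers differed from untreated by a median of -0.13 at 60 days, with 3 of 7 higher, and their part in the Col28a1 values was not tested. Only its tumour signal was above background on all arrays; the reference signal was on 1 array. Col7a1, which forms the anchoring fibrils under the epidermis, read 1.60, 2.44, 3.44 and 2.40, then 3.31, 3.16, 1.49 and 2.85, then 3.4, 3.16, 3.12 and 2.90, then 3.02, 3.33, 2.92 and 3.36 in untreated, 4-day, 60-day and resistant tumours, with overlap throughout.

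The slide as a block changed the collagen calls to 2 at 4 days (Col8a1 and Col4a6, where 2.88% of all genes were called) and 2 at 60 days (Col4a6 and Col28a1, 2.85%). With the model restricted to the 60-day and untreated arrays 7 collagens passed (5.72% of all genes), 4 lower (Col5a1, Col5a2, Col8a1 and Col12a1) and 3 higher (Col4a6, Col17a1 and Col28a1). Leaving resistant replicate 1 out of the 4-group model left 6 of them called at 60 days, all but Col5a1, where 5.18% of all genes were called, and 2 at 4 days (Col4a6 and Col8a1, 3.19%). Without untreated replicate 3 there were 3 calls at 4 days (Col4a6, Col5a2 and Col8a1, where 3.09% of all genes were called) and 3 at 60 days (Col4a6, Col5a2 and Col28a1, 5%). Calls over all genes thus became more frequent in each of these fits.

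All 3 tested transmembrane collagens were higher at 4 and at 60 days, with medians of 0.07 at both times and no call. Col17a1, the hemidesmosome collagen of basal keratinocytes, had ratios of 4.10, 4.24, 4.68 and 3.86 in untreated tumours, 5.16, 5.41, 4.29 and 5.09 at 4 days, 5.5, 5.51, 4.99 and 4.87 at 60 days, and 0.65, 5.18, 4.87 and 5.21 in resistant tumours. The 60-day arrays lay above the untreated ones, and resistant replicate 1 lay far below every other array. The differences were 0.77 ± 0.75, 1.00 ± 0.75 and -0.24 ± 0.75 (limma adjusted p = 0.7, 0.517 and 0.959). Without resistant replicate 1 the resistant difference turned to 0.87 ± 0.26 (adjusted p = 0.163). Without resistant replicate 1 the 60-day difference was 1.00 ± 0.24 and passed (adjusted p = 0.0335). The 10 keratinocyte markers had a mean ratio of 2.89 to 3.28 in untreated tumours, 2.97 to 4.01 at 4 days, 3.45 to 4.09 at 60 days and 1.09 to 4.18 in resistant tumours, with 9 of 10 higher at 60 days (median 0.54). The 8 hair follicle markers were all higher at 60 days (median 2.09, mean ratios of 1.45 to 4.94 in untreated and 5.09 to 5.67 in 60-day tumours). Krt5 and Krt10, the brightest keratinocyte markers, differed by 0.21 ± 0.30 and 1.06 ± 0.83 at 60 days. The hair follicle keratins Krt71 and Krt27 differed by 1.16 ± 0.49 and 1.83 ± 0.70. The part of either list in the Col17a1 and Col4a6 values was not tested.

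**Figure D5:**
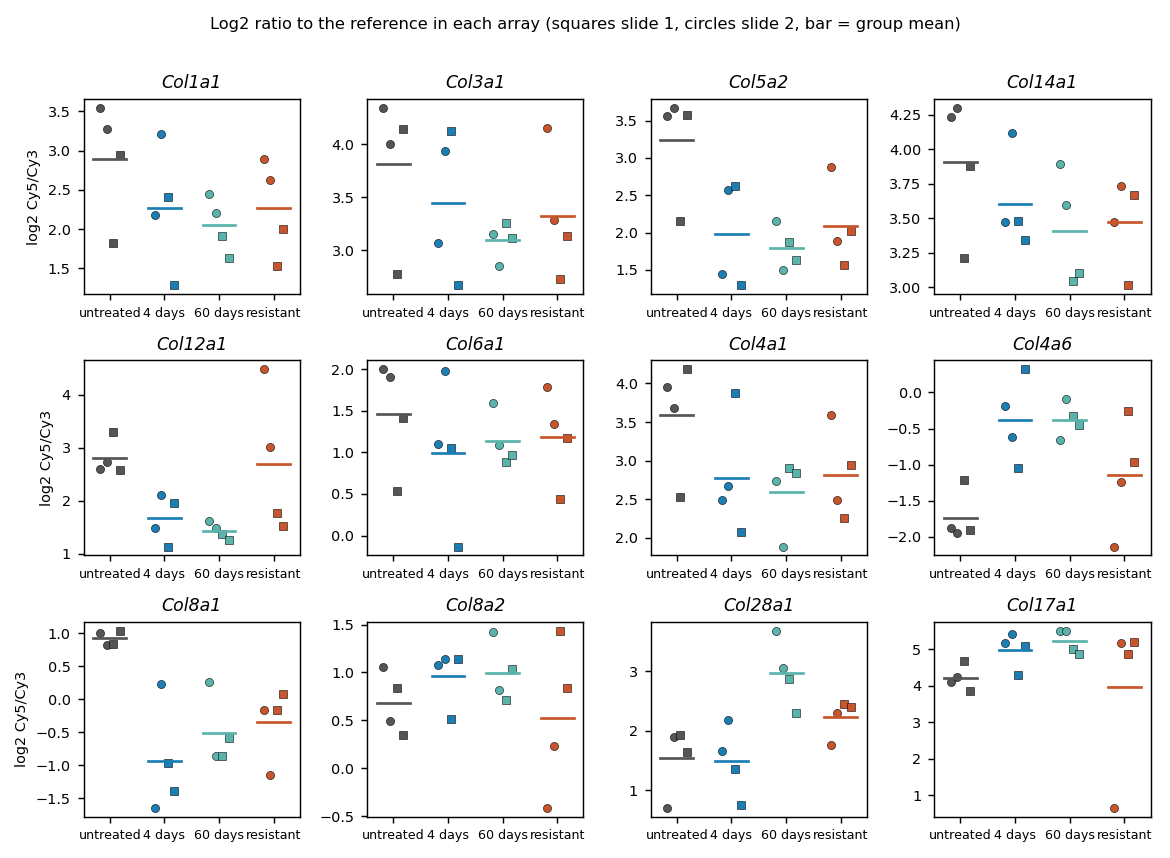
Log2 Cy5/Cy3 ratio on each array for 12 collagen genes in untreated, 4-day, 60-day and resistant tumours (squares slide 1, circles slide 2, bar = mean of the 4 arrays; each panel has its own axis). All treated arrays lie below the untreated ones for Col8a1, and untreated replicate 3 lies below its group for Col1a1, Col3a1, Col4a1 and Col5a2.

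The multiplexins release the antiangiogenic fragments restin and endostatin. Col15a1 read 3.56, 3.95, 1.80 and 2.73 in untreated tumours, 2.84, 4.18, 1.86 and 1.22 at 4 days, 4.16, 3.16, 2.10 and 2.63 at 60 days, and 3.04, 2.88, 1.84 and 2.78 in resistant tumours. Col18a1 read 3.48, 4.01, 2.79 and 3.99, then 2.78, 3.34, 3.80 and 2.28, then 3.46, 2.51, 2.77 and 2.72, then 4.07, 3.24, 2.66 and 3.06. All groups overlapped for both, with differences from untreated between -0.70 and 0.00. The 10 endothelial markers had mean ratios of 1.42 to 2.18, 1.78 to 2.15, 1.76 to 2.32 and 1.53 to 2.68 in the same order of groups, and the 10 pericyte and smooth muscle markers 0.47 to 1.25, 0.78 to 1.49, 0.74 to 1.23 and 0.97 to 1.58.

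The machinery around the collagens was counted with lists of pathway genes. Of 22 genes for folding and modifying collagen in the endoplasmic reticulum, 19 were lower at 4 days (median -0.50), 17 at 60 days (median -0.54) and 16 in resistant tumours (median -0.25), beside -0.01, 0.00 and 0.01 over all genes, and limma called none of the 22. At an unadjusted p under 0.05, 12 of them were lower and 0 higher at 4 days (54.5%, beside 16.7% of all genes), and 12 were lower and 1 higher at 60 days (59.1%, beside 18.7%). With the slide as a block Ppib, a prolyl isomerase of collagen folding named after its values were seen, passed at 60 days. Its difference was -0.60 (SE 0.144 and limma adjusted p = 0.0449 with the block, SE 0.18 and 0.113 without it). Serpinh1, the collagen chaperone HSP47, read 1.79, 2.00, 1.12 and 2.09 in untreated tumours and 0.19, 1.02, 1.22 and -0.07 at 4 days, a difference of -1.16 ± 0.29 (adjusted p = 0.065) with overlap only through untreated replicate 3. Of 11 tested genes for processing and cross-linking, 9 were lower at 4 days (median -0.61), 10 at 60 days (median -0.62) and 9 in resistant tumours (median -0.32), with no call. The brightest members were Pcolce, an enhancer of procollagen cleavage (-0.88 ± 0.45 at 4 days), and Adamts2, a procollagen N-proteinase (-0.58 ± 0.33). In the endoplasmic reticulum list Rcn3, a calcium-binding protein, differed by -0.73 ± 0.37.

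Of 14 fibril-associated matrix proteins 10 were lower at 4 days and 8 at 60 days, with no call. Fibronectin (Fn1) read 0.23, 0.35, -1.41 and 0.15 in untreated tumours and -1.44, -2.14, -2.84 and -2.34 at 60 days, a difference of -2.02 ± 0.54 (limma adjusted p = 0.0843, and 0.0283 with the slide as a block). The other bright member, the collagen-binding glycoprotein Sparc, differed by -0.72 ± 0.64 at 60 days. Of 9 tested collagen receptors 7 were lower at 4 days, and Itgb1, the beta chain shared by the collagen-binding integrins, differed by -1.22 ± 0.30 (adjusted p = 0.0624) and by -1.25 ± 0.30 at 60 days (adjusted p = 0.0639, and 0.0484 with the block), while the receptor kinase Ddr2 differed by -0.18 ± 0.22. Of 13 genes of TGF beta signalling, a main inducer of collagen transcription, 11 were lower at 4 days (median -0.28) and 11 at 60 days (median -0.30), with no call, and its brightest members Tgfbi and Tgfbr2 differed by -0.12 ± 0.29 and -0.56 ± 0.30 at 4 days.

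Of 9 tested collagen-degrading enzymes and their inhibitors 6 were lower at 4 days, and 1 was called, where 1.34% of all genes were. Mmp13, a collagenase that cleaves fibrillar collagen, read 0.51, 0.96, 3.00 and 1.17 in untreated tumours, -0.71, -0.73, -0.81 and 0.14 at 4 days, -0.02, -0.32, -0.82 and -0.46 at 60 days, and 0.60, 0.88, 1.00 and 1.30 in resistant tumours. It fell at 4 days by 1.94 on the log2 scale (SE 0.41, limma adjusted p = 0.0409, 0.0248 with the slide as a block, -2.42 on slide 1 and -1.45 on slide 2), and the difference at 60 days was -1.81 ± 0.41 (adjusted p = 0.055, and 0.0322 with the block, -2.72 on slide 1 and -0.90 on slide 2). The resistant values lay inside the untreated range. The brightest members, the inhibitors Timp2 and Timp3, differed by 0.20 ± 0.40 and 0.55 ± 0.32 at 4 days. The inhibitor Timp1, named after its values were seen, differed by -2.04 ± 0.54 at 4 days without overlap (adjusted p = 0.0799, and 0.048 with the slide as a block).

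From the other cell type lists 3 genes rose. These were 1 of 8 melanocyte and 1 of 7 adipocyte markers at 4 days, and 1 of 4 tested cartilage genes at 60 days. The pericyte, endothelial, keratinocyte, hair follicle, muscle and nerve lists had no call. Of all tested genes 1.34% were called at 4 days and 0.819% at 60 days. Mitf, the melanocyte transcription factor, rose at 4 days (0.88 ± 0.20, limma adjusted p = 0.0459, 0.0354 with the slide as a block, 0.99 and 0.76 on slides 1 and 2), and all 8 melanocyte markers were higher then (median 1.07), Dct by 0.75 ± 0.70. Pparg, the adipocyte transcription factor, rose at 4 days (1.32 ± 0.30, adjusted p = 0.0459, 0.0383 with the block, 1.23 and 1.40 on the slides), where Fabp4 and Cfd differed by 0.96 ± 0.44 and -0.02 ± 0.48. Ucma, a cartilage matrix protein, rose at 60 days (2.05 ± 0.42, adjusted p = 0.0381, 0.0248 with the block, 1.77 and 2.34 on the slides), where Sox9 and Comp differed by 1.10 ± 0.62 and 0.28 ± 0.21. Of 7 cartilage genes listed 4 were tested, and 1 or 2 of these were above background on each untreated array. Ucma was dim, with a mean log2 intensity of 6.62 and untreated ratios of -0.18 to -0.03. The size of its rise is therefore uncertain. At 60 days Tagln and Acta2 of pericytes differed by -0.63 ± 0.24 and -0.21 ± 0.22, Kdr and Vwf of endothelium by 0.19 ± 0.45 and 0.47 ± 0.27, Tnnc2 and Myh4 of muscle by -0.44 ± 0.82 and -1.01 ± 0.68, and S100b of nerve by 0.14 ± 0.35. The part of any of these cell types in the collagen values was not tested.

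For the resistant tumours the largest collagen differences from the treated groups depended on resistant replicate 1, except that of Col6a5. Col12a1 differed by 1.03 ± 0.48 from 4 days and 1.26 ± 0.48 from 60 days, and without that array by 0.43 ± 0.32 and 0.67 ± 0.32. Col17a1 differed by -1.01 ± 0.75 and -1.24 ± 0.75, and without it by 0.10 ± 0.26 and -0.13 ± 0.26. Col4a6 differed by -0.77 ± 0.35 from 4 days, and by -0.44 ± 0.31 without it. Col6a5, a type VI chain, differed by -0.90 ± 0.35 from 60 days, and by -0.835 ± 0.384 without resistant replicate 1. Col6a5 was dim. Its tumour signal was above background on 1 array of the resistant group and 3 of the 60-day group, and its reference signal on 0 arrays. The size of this difference is therefore uncertain. Between 60 and 4 days Col26a1 differed by 0.87 ± 0.79 and Col27a1 by -0.50 ± 0.26. Each missed the adjusted threshold with all arrays, with limma adjusted p-values from 0.598 to 1.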

How the data were processed

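Per the file headers, Agilent Feature Extraction 10.7.3.1 wrote for each spot the mean and local background intensity in both dyes, processed intensities, and a log10 ratio with Cy5 on top. The deposited files' other columns are 0 or 1 flags (background, uniformity, saturation). Log2 ratios make up the deposited value table, with centring not stated; set against the scanner's ratios its slope was 0.993. The number of arrays limits the precision.

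Here, intensities were corrected by normexp with an offset of 50, normalized within arrays by loess with controls at weight 0, and set to missing for outlier spots (0.55%), with limma 3.58.1 in R 4.3.3. The 59305 spots gave 55681 probes, of which 30486 were above background in Cy5 on at least 4 arrays. The probe with the highest mean intensity stood for a gene, and 1651 symbols were updated through RefSeq. Groups were compared by limma in a model of all 4 groups, with Benjamini-Hochberg adjustment over all genes in each comparison and a threshold of 0.05; the fit was tested on simulated data. Cy5 alone means the tumour channel after loess and Aquantile.

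The alternatives were no background correction, median centring, processed signals, the deposited table, Cy5 alone, no filter or a stricter one, the mean of a gene's probes, the slide as a block, only the groups compared, and leaving out each array. Array values are given for called members and 18 chains chosen by role, and differences for the 3 largest of each comparison. Of each list the called members and the 2 brightest are named, except 1 gene that is not reported here. The members and lists were chosen with earlier results of these data known. Array values of Col4a6 and Col28a1, the partner chain tests, the channel comparison, the promoters shown, and the naming of other members (such as those past an unadjusted p) were chosen after values were seen. Symbols matched 35 of 44 collagens to RefSeq promoters.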

Additional observations from a re-analysis of the deposited data

Results flagged for a closer look

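Of 96 groups of 4 arrays checked over 24 collagen genes, 8 held an array far from the others of its group by Dixon's criterion, where chance flags about 1 in 20 groups. Untreated replicate 3 accounted for 4 of them: Col4a2 at 1.94 against 3.02 to 3.08, Col5a1 at 1.03 against 1.94 to 2.06, Col5a2 at 2.16 against 3.56 to 3.67, and Col4a6 at -1.21 against -1.95 to -1.88 on the other untreated arrays. On resistant replicate 1 Col17a1 stood at 0.65 against 4.87 to 5.21. The 4-day replicate 2 had a Col26a1 ratio of 2.22 against 0.32 to 0.37, and 60-day replicate 1 had 3.31 against 1.04 to 1.24. Col8a2 stood at 0.52 on 4-day replicate 3 against 1.08 to 1.14.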

How the results depend on the processing

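The 4-day count of 1 collagen call became 0 with median centring (12 of all genes called), with the deposited value table or with only the groups compared, and 2 with the slide as a block. Over the 10 settings 12 to 633 of all genes were called at 4 days. The 4-day collagen count ranged from 0 to 3 over the leave-one-out fits, where 45 to 702 of all genes were called. The Col8a1 difference kept its sign under all 26 alternatives, from -2.26 to -1.63, and passed in 7 of 10 settings and 11 of 16 leave-one-out fits. Many of these could change its adjusted p but not the difference, so its sign there is no support. They were the filters and the probe mean, as its only feature was above background on all 16 arrays. The slide block, the model of only the groups compared and leaving out a 60-day or resistant array were others. Col8a1 missed with median centring (-1.70, adjusted p = 0.426), the deposited table (-2.14, adjusted p = 0.0503) and only the groups compared (adjusted p = 0.111). The 60-day count of 0 became 1 in Cy5 alone, 2 with the slide as a block and 7 with only the groups compared. Over the 10 settings 12 to 1258 of all genes were called at 60 days. The leave-one-out fits gave 0 to 6 collagen calls at 60 days, where 22 to 1138 of all genes were called. Leaving out 4-day replicate 2 gave 1 collagen call at 60 days (Col8a1). The joint test of the 4 groups ranged from 0 to 1 (Col8a1 without 4-day replicate 2), where 13 to 357 of all genes were called. The 60-day family median was -0.47 when probes had to be above background on all 16 arrays. Of the 38 probes used in the main fit 11 fell short of that, so this median covers fewer genes and is not like for like. In that setting Col4a6 turned to -0.056, since its other probe was used. The family medians of the other comparisons moved by less than the spread of 0.284 between arrays. That spread is about as large as the largest of these medians, so a smaller move can still turn a sign. Resistant against 60-day tumours ranged from -0.067 to 0.174 over the processing settings. Resistant against 4-day tumours ranged from -0.118 to 0.3 over the leave-one-out fits. With 4 arrays a group, small differences were not detectable. Without resistant replicate 1 the resistant Col17a1 difference turned to 0.867 against untreated and 0.097 against 4-day tumours. Settings for Col4a6, Col12a1, Col17a1 and Col28a1 were followed after seeing the data.
No paired analysis was possible because replicate numbers follow accession order and pair no samples.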
